A study of Mus musculus with 4 samples.

Results

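The genes described here are named for the proteins of the cytosolic ribosome, which most of them encode. They were chosen by symbol, as genes named Rpl or Rps with a number, the acidic stalk genes Rplp0, Rplp1 and Rplp2, and Rpsa, without the S6 kinase genes and without rows marked as pseudogenes. This gave 65 of the 11598 genes of the table, 39 of the large (60S) subunit and 26 of the small (40S) subunit. The subunit was also taken from the symbol. The assembly protein gene Rpl7l1 thus counts as large, and Rps4l, which RefSeq lists as a transcribed pseudogene, counts as small. Ribosome-protected fragments (RPFs) had been sequenced by Ribo-seq, which reads the stretches of mRNA covered by ribosomes, from leptotene/zygotene spermatocytes that FACS had separated from the testes of mice aged 12 dpp. There were 2 libraries of control mice, whose genotype label is wild type, and 2 of *Eef1g*-cKO mice, in which *Stra8*-GFPCre removes an internal block of exons of *Eef1g* in germ cells once *Stra8* is expressed. *Eef1g* encodes the gamma subunit of the elongation factor eEF1B complex. Each library is described as an independent biological replicate, and the number of mice behind each was not given in the sources used here.

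Every cytosolic ribosome holds 1 large and 1 small subunit, each built from ribosomal RNA and a set of proteins, most of them needed in equal numbers. The small subunit reads the mRNA and the large subunit forms the peptide bond, and the stalk of the large subunit recruits the elongation factors. Most mammalian ribosomal protein genes are short, are translated strongly in growing cells through a pyrimidine tract at the start of their mRNA (the TOP motif) under control of mTOR, and have left many processed copies in the genome. In male germ cells the X chromosome is silenced during meiosis, and autosomal copies of X-linked ribosomal protein genes, such as Rpl10l for Rpl10 and Rpl39l for Rpl39, are known to be expressed there.

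Levels are given in FPKM, the deposited unit, in which reads are scaled to the length of the gene in kilobases and to 1000000 reads of the library, and summed levels in RPM, which is scaled to 1000000 reads alone. The libraries held 2479504 and 1384282 reads for control and 223906 and 407979 for *Eef1g*-cKO, so that 1 read on a gene of 1 kb was worth 0.403, 0.722, 4.47 and 2.45 FPKM respectively. *Eef1g* was at 27.6 and 26.8 FPKM in control and at 0 and 6.26 in *Eef1g*-cKO, lower in both libraries (limma adjusted p = 0.0731, edgeR adjusted p = 0.00780). These levels rested on 107 and 58 reads in control and on 0 and 4 reads in *Eef1g*-cKO. Of 10 leptotene/zygotene marker genes, 8 were higher in *Eef1g*-cKO, 5 rose by adjusted p and 1, Stra8, fell, and their summed level was 3527 to 4570 RPM in control and 8623 to 9111 in *Eef1g*-cKO. Each of 10 spermatogonial marker genes was lower and 5 fell, with sums of 1500 and 1908 RPM in control against 304 and 319. The 7 Sertoli cell markers summed to 1020 and 251 RPM in control and to 237 and 154 in *Eef1g*-cKO, and the 4 peritubular markers to 149 and 118 against 53.6 and 56.4. The 4 pachytene markers summed to 779 and 586 RPM against 1711 and 1777. Of these, Hist1h1t rose by adjusted p, Hspa2 and Ldhc were higher without passing it, and Piwil1 was lower at 8.18 and 2.93 FPKM against 1.13 and 1.24 (limma adjusted p = 0.161). In sorted bulk cells, fewer cells of a type and less RNA per cell cannot be told apart, and the part of these other cells in the values below was not tested.

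The large subunit genes together took fewer reads in *Eef1g*-cKO. The small subunit genes were also lower in both *Eef1g*-cKO libraries, but differed by less than the control replicates did. All 65 genes together took 0.713% of reads in control replicate 1 (95% Wilson interval 0.703% to 0.724%) and 0.861% in control replicate 2 (0.846% to 0.877%). They took 0.554% (0.524% to 0.586%) and 0.524% (0.502% to 0.546%) in the *Eef1g*-cKO libraries. The *Eef1g*-cKO shares lay below each control share, and the intervals cover counting error only.

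The large subunit genes summed to 4074 and 4684 RPM in control and to 2537 and 2348 in *Eef1g*-cKO, a ratio of the means of 0.558. The small subunit genes summed to 3059 and 3929 RPM in control and to 3006 and 2890 in *Eef1g*-cKO, a ratio of 0.844. In both subunits each *Eef1g*-cKO sum lay below each control sum. For the large subunit the gap between genotypes was wider than the gap between replicates. For the small subunit it was narrower than the gap between the control replicates. The 74 genes of the mitochondrial ribosome, which translates only the mitochondrial mRNAs, summed to 4042 and 4864 RPM in control and to 4252 and 3814 in *Eef1g*-cKO, so their groups overlapped.

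The large subunit took 57.1% of the ribosomal protein reads in control replicate 1 (95% Wilson interval 56.4% to 57.8%) and 54.4% in control replicate 2 (53.5% to 55.3%). It took 45.8% (43.0% to 48.6%) and 44.8% (42.7% to 46.9%) in the *Eef1g*-cKO libraries. As a ratio of large to small subunit reads this was 1.33 and 1.19 in control against 0.844 and 0.813 in *Eef1g*-cKO. The groups did not overlap, and the difference of the log2 ratios was -0.61 with a pooled replicate SD of 0.084. With 2 libraries against 2, the smallest 2-sided p that an exact permutation test can give is 0.333.

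The ratio rested in part on a few genes. Rpl8, Rpl4 and Rps14 held 34.1% of all ribosomal protein reads, and the 6 genes with most reads held 54.7%. Without the first 3 the ratio was 0.772 and 0.869 in control against 0.636 and 0.638 in *Eef1g*-cKO. Without all 6 it was 1.72 and 2.10 against 1.34 and 1.33. In both cases the groups still did not overlap, with a difference of the log2 ratios of -0.36 and -0.51.

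**Figure D1:**
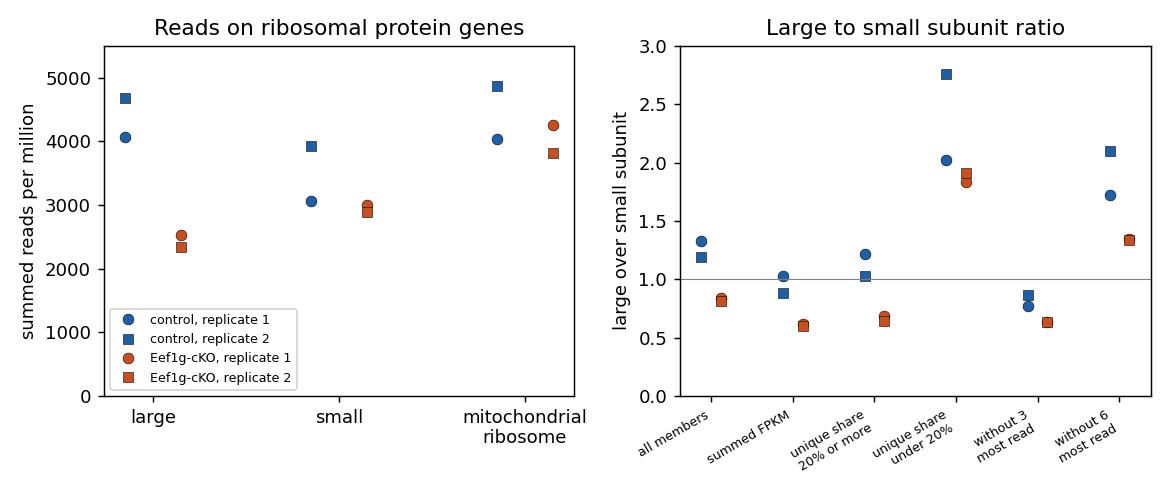
Left, summed RPM (reads per 1000000) of the 39 large subunit, 26 small subunit and 74 mitochondrial ribosomal protein genes in each library. Right, the ratio of large to small subunit per library, for all members by reads, by summed FPKM, for members with a high or low share of windows found nowhere else in the genome, and without the 3 or 6 members with most reads. The *Eef1g*-cKO points lie below the control points in each case on the right.

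The test was made gene by gene with limma over the 10475 genes whose mean reached 1 FPKM, of which 64 were ribosomal protein genes. Only Rpl31, with 12 reads in control replicate 1 and 0 in the other libraries, fell under this limit. With an unadjusted p under 0.05 and a change beyond 1 on the log2 scale, 15 of the 64 decreased, where 16.3% of all tested genes did, and 1 increased, where 7.32% of all tested genes did. The 15 were 13 of 38 large subunit genes and 2 of 26 small subunit genes, Rps3 and Rps26. By Benjamini-Hochberg adjusted p, 7 decreased (6 large, 1 small), where 4.97% of all tested genes did, and 0 increased, where 2.87% did. Without control replicate 1 or without control replicate 2 no member was called by adjusted p, and nor was any other gene of the table. Without *Eef1g*-cKO replicate 1 or 2 the decreased members numbered 13 and 12, beside 1116 of all 10591 and 1471 of all 10596 genes tested. Median centring of the libraries, which moved the median of all tested genes from -0.23 to -0.019, gave 9 decreased members and 1 increased member by unadjusted p, beside 1346 decreased and 1157 increased among all 10475 genes. With an unadjusted p under 0.05 at any fold change, 2 increased, Rpl36 and Rpl37, where 11.2% of all tested genes did.

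In edgeR on the recovered reads 43 members could be tested, 9 decreased by adjusted p (background 11.2%) and 0 increased (background 8.75%), also by unadjusted p (background 11.0%). DESeq2 on the same reads decreased 5 of 44 by adjusted p (background 5.34%) and increased 0 (background 5.94%). Of the 7 limma calls by adjusted p, 5 were also called by edgeR, while Rpl37a and Rpl13 had too few reads to be tested in it. Each *Eef1g*-cKO library lay below each control library in 24 of the 64 members, or 37.5%, where 37.7% of all tested genes did so, and above them in 7, where 24.6% did so. The count of genes without overlap on the lower side was thus at the background of the table.

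The median log2 fold change was -0.67 over the 64 members, -1.01 over the large subunit and -0.22 over the small subunit, beside -0.23 over all tested genes. Of the large subunit genes 31 of 38 were lower in *Eef1g*-cKO, and of the small subunit genes 16 of 26. Of all 10475 tested genes 6191 were lower, so the small subunit count was near the share of all genes. The 74 mitochondrial ribosomal protein genes had a median of -0.37. In edgeR, which left out members with few reads, the medians were -0.76 over 24 large subunit genes and 0.13 over 19 small subunit genes, beside -0.052 over the 8037 genes that both tools tested. The small subunit median thus turned sign. These medians describe the genes of these libraries and were not tested.

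**Figure D2:**
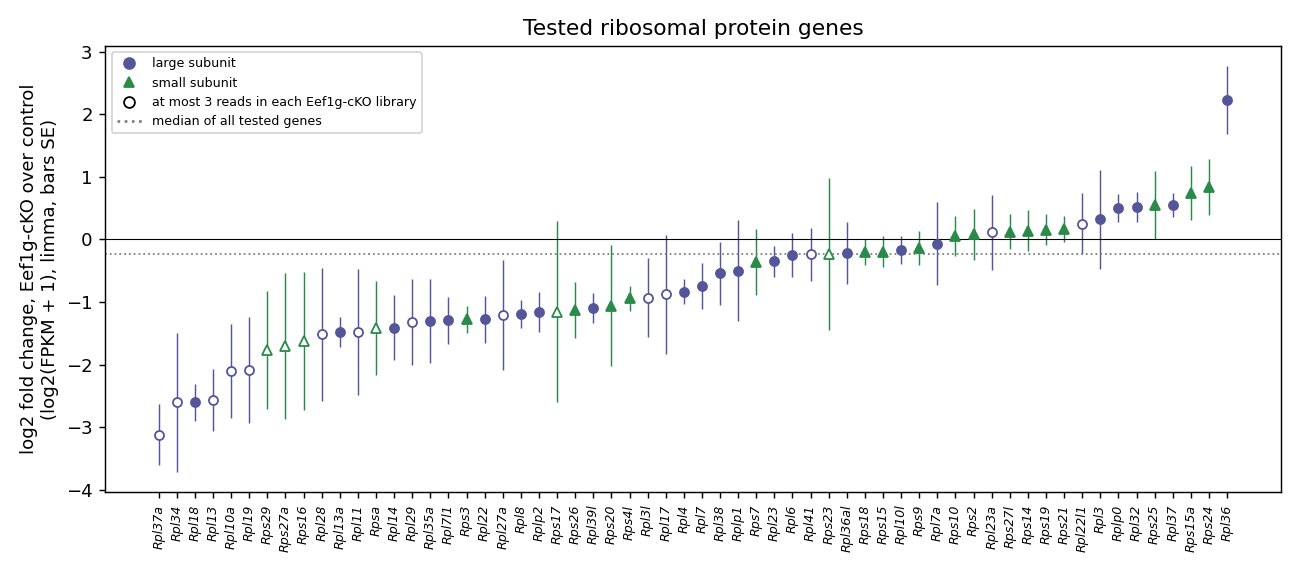
Log2 fold change of *Eef1g*-cKO over control for 60 of the 64 tested ribosomal protein genes, with limma standard errors, in rising order. Open symbols mark genes with at most 3 reads in each *Eef1g*-cKO library, and the dotted line is the median of all tested genes at -0.23. Large subunit genes fill most of the left side, and the widest error bars belong to genes with few reads.

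Depth limited what could be read from many members. In each *Eef1g*-cKO library 22 of the 65 genes had at most 3 reads, and 7 had 0 in both. A count of 0 allows up to 3 reads, and in 20 of the 22 the control mean was below the level of 3 reads in *Eef1g*-cKO. Rpl37a, a large subunit protein with a zinc finger, had 10 and 7 reads in control against 0 in both *Eef1g*-cKO libraries, which is 6.86 and 8.60 FPKM against a limit of 22.8 and 12.5 FPKM. It passed the adjusted p in limma, but a fold cannot be given because control lay below that limit.

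The same held for Rpl13 with 10 and 5 reads in control against 0 and 0. Rpl19, with 17 and 1 reads against 0 and 0, passed the unadjusted p alone (limma adjusted p = 0.164). Rpl10a had 19 and 7 reads against 0 and 1. Of the 15 decreased members, 4 had at most 3 reads in each *Eef1g*-cKO library, and these were Rpl37a, Rpl13, Rpl19 and Rpl10a. The 1 increased member, Rpl36, rested on 4 and 1 reads in control against 1 and 4 in *Eef1g*-cKO. The other 11 decreased members had more reads than that in at least 1 *Eef1g*-cKO library, and 26 of the 65 members had 10 or more reads in every library.

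Rpl8, a protein near the peptidyl transferase centre (chr15:76904071-76906318, GRCm38), had the highest control level of all members. It was at 1329 and 1228 FPKM in control and at 585 and 535 FPKM in *Eef1g*-cKO. The groups lay far apart, with a log2 fold change of -1.19 ± 0.22 (SE, limma adjusted p = 0.0389, edgeR adjusted p = 0.000953). Rpl13a, a large subunit protein also known from interferon responses (chr7:45125563-45128745), was at 353 and 467 FPKM against 131 and 160. Its log2 fold change was -1.48 ± 0.24 (limma adjusted p = 0.0334).

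Rpl18, a protein of the outer large subunit, had the strongest decrease among members with more than 3 reads in an *Eef1g*-cKO library. It was at 89.1 and 130 FPKM in control, or 150 and 122 reads, and at 19.7 and 14.4 FPKM in *Eef1g*-cKO, or 3 and 4 reads. The log2 fold change was -2.60 ± 0.29 (limma adjusted p = 0.0225, edgeR adjusted p = 0.00107). Rpl14, another large subunit protein, was at 46.2 and 97.4 FPKM against 38.2 and 15.7. It was lower without overlap, and in limma it passed the unadjusted p alone (adjusted p = 0.138).

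Rps3, a small subunit protein at the mRNA entry channel that is also linked to DNA repair (chr7:99477896-99483709), was the small subunit member with the clearest decrease. It was at 317 and 401 FPKM in control and at 150 and 144 in *Eef1g*-cKO. The log2 fold change was -1.28 ± 0.21 (limma adjusted p = 0.0352, edgeR adjusted p = 0.000709). Rps26, which lies at the mRNA exit channel, was at 215 and 105 FPKM against 49.8 and 93.0, where the control replicates differed from each other by more than the lower of them differed from *Eef1g*-cKO replicate 2 (limma adjusted p = 0.154).

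Rps14 and Rps9, also strongly read, did not pass the test. Rps14, a protein of the platform, was the small subunit member with the highest control mean and was at 791 and 1366 FPKM in control and at 1107 and 1186 in *Eef1g*-cKO, so its groups overlapped. Rps9, of the body of the subunit, was at 412 and 608 FPKM against 502 and 415 and also overlapped.

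**Figure D3:**
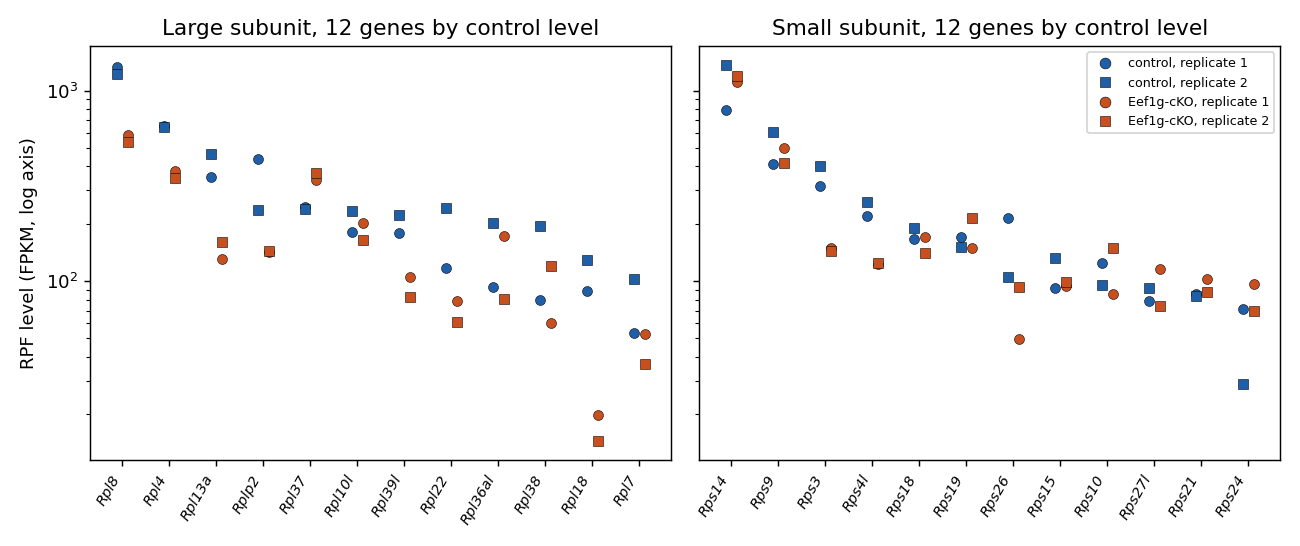
RPF level in FPKM on a log axis in each library for 12 large and 12 small subunit genes, taken in falling order of control mean among the members shown. Rpl8, Rpl4, Rpl13a, Rpl18 and Rps3 show both *Eef1g*-cKO points under the control points, while Rps14, Rps9 and Rpl10l overlap and Rpl37 is higher.

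Among the proteins whose association with eEF1G the study examined, Rpl4 carried most reads. Rpl4, which reaches into the peptide exit tunnel (chr9:64173387-64178562), was at 655 and 648 FPKM in control and at 380 and 348 in *Eef1g*-cKO. The replicates lay close together and the groups apart, with a log2 fold change of -0.84 ± 0.20, which is inside the limit of 1 (limma adjusted p = 0.0590, edgeR adjusted p = 0.0120). Rpl7a, a large subunit protein, was at 13.5 and 10.0 FPKM against 5.17 and 22.7 and overlapped, on 29, 12, 1 and 8 reads.

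The stalk of the large subunit, which contacts the elongation factors, was measured through Rplp0, its base, and the acidic proteins Rplp1 and Rplp2. Rplp2 was at 439 and 236 FPKM in control and at 142 and 145 in *Eef1g*-cKO, a log2 fold change of -1.16 ± 0.32 (limma adjusted p = 0.0765, edgeR adjusted p = 0.0170). Rplp0 was at 41.5 and 49.4 FPKM against 62.4 and 66.7, higher in both libraries with a log2 fold change of 0.50 ± 0.22 (limma adjusted p = 0.188). Rplp1 was at 13.8 and 52.5 FPKM against 9.54 and 36.7, and its replicates differed more than its groups. The log2 fold changes of the 3 stalk genes thus differed in sign, and Rpl12 was not analysed here.

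Of the 5S RNP, which carries the 5S rRNA and is known for its binding of MDM2, only Rpl11 was in the table, with 10 reads in control replicate 1 and 0 in the other libraries. Rpsa, the laminin receptor protein of the small subunit, had 19 and 1 reads in control against 0 and 0 in *Eef1g*-cKO. Neither depth can show a change. Rps27a, which is made as a fusion with ubiquitin, had 14 and 17 reads against 2 and 0.

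Of the 64 tested members 17 had a higher mean of log2 levels in *Eef1g*-cKO, 7 of them without overlap, and all but Rpl36 stayed inside the fold limit. Rpl37, a small zinc-finger protein of the large subunit, was at 245 and 238 FPKM in control and at 340 and 370 in *Eef1g*-cKO, without overlap, with a log2 fold change of 0.55 ± 0.19 (limma adjusted p = 0.122, edgeR adjusted p = 0.0421 at a fold inside the limit). Rpl32 was at 55.2 and 78.8 FPKM against 97.5 and 92.4. Rps24, Rps15a and Rps25, which with Rpl36 and Rpl37 had the 5 highest log2 fold changes, were at 0.84 ± 0.45, 0.75 ± 0.43 and 0.55 ± 0.54, and none passed the test by unadjusted or adjusted p.

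The paralogs expressed in germ cells rested on more reads in control than in *Eef1g*-cKO. In the *Eef1g*-cKO libraries Rpl10l had 46 and 69 reads, Rps4l 26 and 48 and Rpl39l 19 and 27. Rpl36al had 20 and 17 there, and Rps27l 12 and 14. Rpl10l, an intronless copy of Rpl10 (chr12:66283379-66284401), was at 181 and 233 FPKM in control and at 201 and 165 in *Eef1g*-cKO. Its groups overlapped, with a log2 fold change of -0.17 ± 0.23 (limma adjusted p = 0.644). Rpl39l, the copy of the exit tunnel protein Rpl39 (chr16:10170197-10174911), was at 179 and 223 FPKM against 105 and 82.2, lower in both libraries with a log2 fold change of -1.09 ± 0.23 (limma adjusted p = 0.0489, edgeR adjusted p = 0.0114).

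Rpl36al, the copy of Rpl36a, was at 92.8 and 203 FPKM against 173 and 80.6, with no separation of the groups. Rps4l, the copy of Rps4x that RefSeq lists as a transcribed pseudogene, was at 220 and 260 FPKM against 123 and 125, a log2 fold change of -0.94 ± 0.20 (limma adjusted p = 0.0484, inside the fold limit). Rps27l was at 78.2 and 91.9 FPKM against 116 and 74.0 and overlapped. The difference between the changes of Rpl10l and Rpl39l was not tested.

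None of the 65 members lies on chromosome X. The X-linked partners Rpl10, Rpl39, Rpl36a and Rps4x, and Rps27, were not analysed here, so a paralog could not be set against its partner. The coding sequences themselves show how far the pairs can be told apart by short fragments. The first 30 bases of each, from the RefSeq coding sequence on GRCm38.p6, are given below 5′ to 3′, with the bases that differ within each pair in capitals.

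Rpl10l: atgggTcgTcgTccGgcTcgCtgttaccgg

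Rpl10: atgggCcgCcgCccCgcCcgGtgttaccgg

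Rpl39l: atgGcttctcacaagacCttcAgGatcaag

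Rpl39: atgTcttctcacaagacTttcCgAatcaag

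Rpl36al: atggtCaacgtAccAaaaacccgAAggacT

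Rpl36a: atggtGaacgtGccTaaaacccgCCggacA

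Over the whole coding sequence, Rpl10l and Rpl10 differ at 98 of 645 bases, with no identical run longer than 23 bases. Rpl36al and Rpl36a differ at 39 of 321, with a longest run of 24. Rpl39l and Rpl39 differ at 23 of 156 and share a run of 38 bases, so that 11 of the 129 windows of 28 bases in Rpl39l are also in Rpl39. An exact match of a 28-base fragment, within the 26 to 34 nt selected for these libraries, can thus tell Rpl10l from Rpl10. It can tell Rpl39l from Rpl39 for most of their length. Further copies elsewhere leave 56.1% of the Rpl10l windows, 84.5% of the Rpl39l windows and 9.18% of the Rpl36al windows without another match in the genome. For Rpl10, Rpl39 and Rpl36a this share was 0%, so an exact match cannot place a fragment on them alone.

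For 3 pairs both paralogs were in the table. Rpl22 was at 118 and 242 FPKM in control and at 78.7 and 60.9 in *Eef1g*-cKO, a log2 fold change of -1.27 ± 0.37 (limma adjusted p = 0.0863, edgeR adjusted p = 0.00332). Rpl22l1, its paralog, had 5, 5, 1 and 1 reads. Rpl7l1, a relative of Rpl7 that takes part in ribosome assembly, was at 25.2 and 34.7 FPKM against 15.4 and 8.47, a log2 fold change of -1.29 ± 0.38 (limma adjusted p = 0.0855, edgeR adjusted p = 0.0259).

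Rpl7 itself was at 53.5 and 103 FPKM against 52.6 and 36.7, lower without overlap and not past the test (limma adjusted p = 0.235). Rpl3, next to the peptidyl transferase centre, had 9, 28, 4 and 3 reads. Rpl3l, its paralog of heart and skeletal muscle, had 9, 4, 0 and 1 reads. Both were near the limit of these libraries.

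Members differed widely in control level, from 1278 FPKM for Rpl8 to 1.93 for Rpl31, although most ribosomal proteins are used in equal numbers. The members also include paralogs, the assembly protein Rpl7l1 and the transcribed pseudogene Rps4l, for which equal use does not apply. The level followed how much of each coding sequence exists only in that place of the genome. For each gene, every 28-base window of its longest RefSeq coding sequence (the exons for Rps4l) was searched for exact copies on both strands of GRCm38.p6, and the share with no copy outside the gene was counted. The median share was 7.07% over the 65 members and 100% over the 10126 tested genes with a coding sequence, members included, of which 97.5% had a share of at least 20%. For *Eef1g* itself, which is not a member, the share was 4.12%.

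Of the members 18 had no unique window, and their control means ran from 1.93 to 137 FPKM with a median of 6.29. The 28 members with a share above 0 and under 20% had a median of 34.7 FPKM. The 19 members with 20% or more had a median of 207 FPKM and held 82.3% of the ribosomal protein reads in control and 79.0% in *Eef1g*-cKO. Spearman's rho of share and control level was 0.76 over the 65 genes, which share libraries and gene family, and it was 0.75 with 31-base windows.

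**Figure D4:**
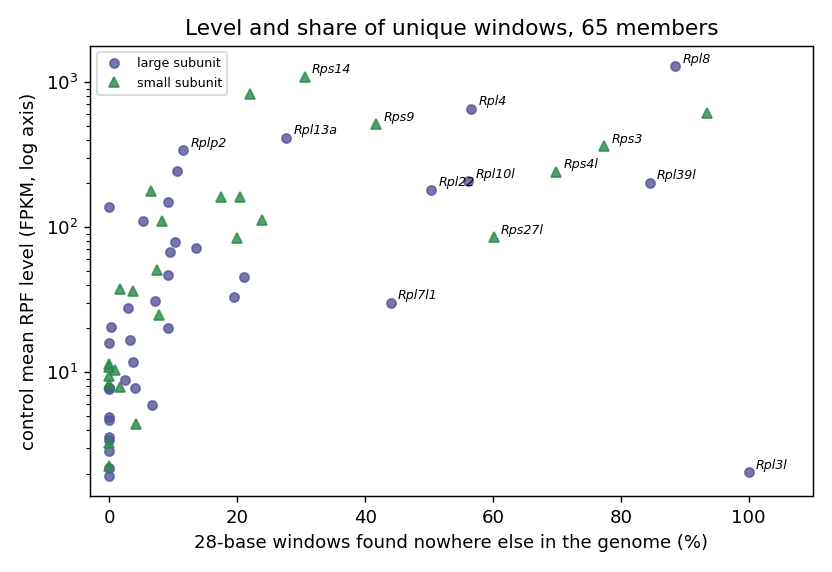
Control mean RPF level in FPKM (log axis) of the 65 members against the share of their 28-base windows found nowhere else in the genome. Members with no unique window lie mostly near or under 10 FPKM, members with a high share mostly above 100 FPKM, and Rpl3l, at 100% unique, is an exception.

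The first 28 coding bases of members with a high and a low level, with the start codon in capitals, show the contrast. Rpl8, Rps3 and Rpl13a have no other copy of this window, Rpl4 has 1, Rpl37a has 2, Rps27a has 3, Rpl11 has 5, Rpl19 has 6 and Rpl7a has 24.

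Rpl8: ATGggccgtgtgatccgagggcagagga

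Rps3: ATGgcggtgcagatttccaagaagagga

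Rpl4: ATGgcttgtgcccgtcccctcatatcgg

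Rpl11: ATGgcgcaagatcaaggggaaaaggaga

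Rpl19: ATGagtatgctcaggctacagaagaggc

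Rpl7a: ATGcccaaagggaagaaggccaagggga

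Among the 22 further RefSeq genes that fit the same symbol rule and were not analysed here, 16 had no unique window and the median share was 0%. They include Rpl5, Rpl12, Rps6 and Rps13. How reads with several matching places were treated was not given in the sources used here, and its part in the levels was not tested. The levels of different members are therefore not read as amounts of translation, while a change of 1 member between genotypes compares the same windows in all libraries.

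The change between genotypes followed the share of unique windows only weakly, with a rho of 0.24 over the 64 tested members. The 9 large subunit members with a share of at least 20% had a median log2 fold change of -1.09, and 8 of them were lower in *Eef1g*-cKO. The 10 small subunit members with such a share had a median of -0.0048, with 5 lower, beside 6191 of all 10475 tested genes. Summed, those large subunit members were at 3187 and 3642 RPM in control and at 1791 and 1623 in *Eef1g*-cKO, and the small ones at 2620 and 3551 against 2599 and 2510.

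The ratio of large to small in these 19 genes was 1.22 and 1.03 in control against 0.689 and 0.646 in *Eef1g*-cKO. In the other 46 it was 2.02 and 2.76 against 1.84 and 1.91. In both sets the *Eef1g*-cKO libraries lay below the control libraries.

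By place in the ribosome, the 12 listed head genes of the small subunit had a median log2 fold change of -0.63 and the 12 body genes of -0.19, with 1 decrease by unadjusted p in each (Rps3 and Rps26), where 16.3% of all tested genes decreased. In edgeR both medians turned sign, to 0.051 over 8 head genes and 0.13 over 9 body genes. Of the 5 listed exit tunnel genes in the table, 4 could be tested, with a median of -0.86. Among these 4 all but Rpl4 had at most 3 reads in each *Eef1g*-cKO library, and edgeR tested only 1 gene of the list. The median therefore does not show a change of the exit tunnel genes as a set. Rack1, listed as Gnb2l1, a scaffold protein of the small subunit head outside the symbol rule, was at 244 and 313 FPKM in control and at 353 and 291 in *Eef1g*-cKO, and overlapped. Fau, which is fused to a ubiquitin-like sequence, had 11, 2, 1 and 1 reads, too few to show a change.

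A pyrimidine run at the annotated start, as in TOP mRNAs, was searched in the RefSeq promoters (GRCm38.p6) of the 46 members that have one. The motif was a C followed by at least 4 letters that are each C or T, beginning within 5 bases of the start. This C could not itself follow a C or T, unless it was the first base searched. Tracts led by a T, as in Rplp2 and Rps24, were thus counted as without the run. The exception was a C at that first base, as in Rps9, whose tract is also led by a T but was counted as a run. It was found in 15 members, or 32.6%, beside 20.1% of the 9226 genes of the table with a promoter and 17.2% of all 27025, and on the other strand in 15.2% of the members and 19.8% of the 27025. The annotated starts may not be those used in spermatocytes. The 30 bases from 10 before to 19 after the start are shown for 3 members with the run, in capitals, and for 3 without.

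Rpl18, chr7:45718061-45718090, plus strand: ctcgcaggccgCTCTTTCCCCgcccactcc

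Rpl13a, chr7:45128726-45128755, minus strand: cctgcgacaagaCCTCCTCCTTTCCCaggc

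Rps9, chr7:3704031-3704060, plus strand: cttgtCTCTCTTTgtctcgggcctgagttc

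Rps3, chr7:99483690-99483719, minus strand: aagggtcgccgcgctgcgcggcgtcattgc

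Rpl4, chr9:64173377-64173406, plus strand: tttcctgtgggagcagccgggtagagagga

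Rpl10l, chr12:66284382-66284411, minus strand: cctccattttgcggctggcggtgggcacgc

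Rpl18 and Rpl13a decreased and Rps9 did not, and of the members without the run Rps3 decreased and Rpl10l did not. The 14 tested members with the run had a median log2 fold change of -0.22 and the 31 without it of -0.84. Members that decreased were thus found both with and without the run.

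Other genes of the same control were listed for comparison. Of 20 TOP mRNA genes that do not encode ribosomal proteins, mostly elongation and initiation factors, 19 could be tested, with a median log2 fold change of -0.56. By adjusted p 2 of them decreased, where 4.97% of all tested genes did, and 1 increased, where 2.87% did. The decreases were Eef1d, the delta subunit of eEF1B, at 96.0 and 113 FPKM in control against 25.2 and 25.3, and Eif3l, a subunit of the initiation factor eIF3, with a log2 fold change of -1.03. The increase was Pabpc1, which binds the poly(A) tail, at 1.39. In edgeR 4 of the 19 decreased by adjusted p (background 11.2%) and 1 increased (background 8.75%). Eif3l was not among these 4, as its log2 fold change of -0.93 there was inside the fold limit. Of 18 genes of the mTOR pathway and of TOP mRNA binding, 17 could be tested, with a median of 0.0022. By adjusted p 1 decreased, Tsc2, an inhibitor of mTORC1, at -1.63, where 4.97% of all tested genes decreased. Larp1, which binds TOP mRNAs, was at 13.0 and 7.75 FPKM in control and at 12.2 and 10.7 in *Eef1g*-cKO.

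The 12 genes for chaperones and importers of ribosomal proteins had a median log2 fold change of 0.019. By adjusted p 2 decreased, where 4.97% of all tested genes did, and 1 increased, where 2.87% did. The decreases were Bccip, a chaperone of Rpl23, at -1.47 and Grwd1, a chaperone of Rpl3, at -1.27. The 1 that increased was Ltv1, which takes part in the assembly of the small subunit, with a log2 fold change of 1.32.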

How the data were processed

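RPFs of 26 to 34 nt were sequenced in 4 libraries of leptotene/zygotene spermatocytes. The authors deposited FPKM and normalized counts, a signal that is each count over a size factor of its library, beside their own log2 fold changes and p-values, which were not used. All values of this signal came out as whole multiples of 1 step (100%, tolerance 0.0001), which gave back the read counts. Cutadapt, Bowtie and STAR and the builds mm10 and hg38 are listed in the submitters' processing notes without roles. The paper's methods name RiboMiner for the analysis. The counting annotation and the treatment of multiply matching reads were not given in the sources used here.

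The comparison used limma 3.58.1 (R 4.3.3) on the log2 of FPKM plus a pseudocount of 1, its prior variance following the trend, in the 10475 genes whose mean over the libraries reached 1 FPKM. Fold changes are on that scale, which understates those of low genes. Calls needed p under 0.05, unadjusted or Benjamini-Hochberg adjusted, and a log2 fold change beyond 1. edgeR 4.0.16 and DESeq2 1.42.0 on the recovered reads, other pseudocounts, filters and scalings, and leaving out each library were alternatives. Windows were searched with numba 0.67.0 in Python 3.11.15. In data simulated for this comparison with 2000 genes changed by 2 on the log2 scale (10094 tested), limma called 81.0% of the changed genes by unadjusted p and 45.4% by adjusted p, and 11.2% and 1.28% of the others. With 200 changed (10323 tested) it called 80.9% and 1.03%, and edgeR 69.5% by adjusted p.

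The members, lists and comparisons were chosen with earlier results of these data known. Members named are eEF1G partners, paralog pairs, stalk and 5S RNP genes, Rpsa, Rps27a, the 5 highest and 5 lowest log2 fold changes and the 3 highest and 3 lowest control levels. A few others were named after their values were seen, as called or strongly read. Some genes are not reported here by name, and counts and sums include them.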

Additional observations from a re-analysis of the deposited data

How the results depend on the processing

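The 18 other settings, among them each library left out, left the median log2 fold change of the members and the large minus small difference of medians (-0.79) below 0, but counts of calls depended on depth and on single libraries, so that the number of decreased members is uncertain. Decreased members by unadjusted p numbered 15, and 9 with median centring or DESeq2, 7 with libraries thinned to the lowest total, and 9 to 21 when 1 library was left out. By adjusted p they numbered 7, 0 with a pseudocount of 0.1 (47 of all 10475 genes), an untrended prior variance or thinning (0 of all genes in both), and 0 to 13 when 1 library was left out (0, also of all genes, without either control replicate, 13 without *Eef1g*-cKO replicate 1, 12 without replicate 2). Leaving out a library leaves 1 sample in a group, which is assumed to vary like the other group. Over all genes, decreases by unadjusted p numbered 1705 of 10475, and 1346 of 10475 with median centring. With DESeq2 9 of 65 members decreased beside 958 of all 11598 genes, and with thinning 7 of 62 beside 1243 of all 10315. The member share with thinning was thus near that of all genes. The count over all genes also fell without either control replicate and rose without either *Eef1g*-cKO replicate. Increased members by unadjusted p numbered 1 (767 of all 10475 genes). They numbered 0 with edgeR (888 of all 8056 genes, and 920 of all 11598 without its filter), DESeq2 (766 of all 11598) or thinning (685 of all 10315). By adjusted p they numbered 0 (301 of all 10475 genes). They numbered 1 with a minimum mean of 5 FPKM (410 of all 7080), median centring (521 of all 10475) or the replicate block (424 of all 10475). The median over members was -0.67, and -0.43 with a pseudocount of 5, -0.43 with a minimum mean of 5 FPKM, -0.46 with median centring, -0.19, -0.76 and -0.77 with edgeR, edgeR without filter and DESeq2, and -0.78 to -0.34 without 1 library. The edgeR filter leaves out members with few reads. Alternatives chosen after seeing the data gave medians of -0.56 for members with 20% or more unique windows and -0.39 for those with a mean of at least 50 RPM (reads per 1000000). The large minus small difference of medians was -0.47 with a pseudocount of 5, -0.44 with a minimum mean of 5 FPKM and -1.09 for members with 20% or more unique windows. The log2 ratio of large to small subunit reads changed by -0.61, by -0.74 and -0.33 for members with 20% or more and under 20% unique windows, and by -0.36 and -0.51 without the 3 and 6 members with most reads. It ranged from -0.69 to -0.53 when 1 library was left out.

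Replicate numbers were shared between the genotypes, and the deviations of same-numbered libraries did not go together (r = -0.0080 over 10475 genes), so the numbers were not taken as pairs. The replicate block gave 20 decreased members by unadjusted and 8 by adjusted p, beside 1825 and 822 of all 10475 genes. Rpl13a, Rpl18 and Rps3 passed the unadjusted p and the fold limit in each of the 18 settings, and Rpl8 in 17. Rps26 failed in 10 of 18, Rpl14 in 7 of 18, Rpl10a in 7 of the 16 that tested it and Rpl19 in 7 of 15, and no named member changed the sign of a call. Across the alternatives for all genes, DESeq2 called 451 genes decreased and 502 increased by adjusted p, against 521 and 301 in limma.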
